A study of Mus musculus with 12 samples.

Results

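RNA from eosinophils of subcutaneous white fat was compared with RNA from eosinophils of blood in 4 libraries of each kind, which are 8 of the 12 libraries in the series. The members were taken by the tissue in the sample labels, and all 15367 genes with enough reads were tested between them. All mice were male, wild-type FVB/NJ, 20 weeks old, fed chow and untreated. The blood libraries came from mice 2807, 2771, 2683 and 2668, and the subcutaneous libraries from mice 2846, 2807, 2771 and 2668, so 3 mice gave both. The other 4 libraries hold eosinophils of gonadal fat (mice 2846, 2807, 2683 and 2668). Values per library are given below in these mouse orders, and a library is named by its tissue and mouse, as in subcutaneous 2846. In every group, eosinophils had been sorted as live CD45+ CD11b+ Siglec-F+ cells, with F4/80 stained as well but not named in the gate. Fat had been digested with collagenase type II (1 mg/mL, 37 °C, 45 min) before sorting, whereas blood had only passed red cell lysis. Tissue and digestion therefore coincide in every library and cannot be told apart here.

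Eosinophils are granulocytes made in bone marrow under interleukin-5, which leave the blood within hours to days and settle in tissues such as gut, lung and fat. In white fat they are a source of type 2 cytokines and are linked to alternatively activated macrophages and to healthy fat metabolism. Cells that leave the circulation meet new adhesion, cytokine and lipid signals, and the genes that answer such signals first are the immediate early genes, whose transcription needs no new protein. The same genes, and the heat shock genes, are also known to respond to enzymatic digestion of tissue. In bulk RNA of sorted cells, a lower level can come from fewer cells of a type or from less RNA per cell, and these cannot be told apart.

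The sorted cells carried eosinophil markers in both tissues. Siglecf, the gene of the sort marker Siglec-F, stood at 231, 241, 295 and 324 CPM (read counts scaled to a common library size) in blood and at 149, 377, 235 and 467 CPM in subcutaneous fat. The ranges overlapped, and the log2 fold change was 0.17 ± 0.35 (SE, adjusted p = 0.75, edgeR quasi-likelihood test, as for all adjusted p-values below). Il5ra, the interleukin-5 receptor chain, had 110 to 128.5 CPM in blood and 73.4 to 170.5 CPM in subcutaneous fat (log2 fold change -0.01 ± 0.30, adjusted p = 0.98). Adgre1, which encodes F4/80, had a log2 fold change of 0.18 ± 0.33 (adjusted p = 0.71). Ptprc and Itgam, the genes of the sort markers CD45 and CD11b, were lower in subcutaneous fat. Ptprc fell by 0.85 ± 0.25 on the log2 scale (adjusted p = 0.023, and 0.056 without subcutaneous 2846), and Itgam by 1.05 ± 0.25 (adjusted p = 0.0097). Per transcript length, Siglecf averaged 39.1 TPM (the deposited length-scaled unit) in blood and 43.1 TPM in subcutaneous fat, well above the granule protein genes Epx (0.920 and 0.730 TPM) and Prg2 (1.75 and 0.671 TPM). Epx and Prg2 were scarce in both tissues, and neither passed the test (adjusted p = 0.92 and 0.27).

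Depth differed between the tissues. Blood libraries held 15310791 to 20815905 estimated reads and 3 of the subcutaneous libraries 12477671 to 15248130, but subcutaneous 2846 held 4379954. That library also stood apart in content, where mitochondrial ribosomal RNA took 28.1% of reads, compared with 5.66% to 8.22% in the other subcutaneous libraries and 4.66% to 7.34% in blood. In a principal component analysis of the 8 libraries, the first component (51.6% of the variance) separated blood from subcutaneous fat, and the second (17.5%) set subcutaneous 2846 (106.9) apart from the other subcutaneous libraries (-72.9 to -60.3). Results that rest on it are given with and without it. The labels do not name a sequencing batch, and mice of one tissue are separate animals.

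Between the tissues, 4121 of 15367 genes (26.8%) passed an adjusted p of 0.05. Of these, 2366 (15.4% of the genes tested) were higher in subcutaneous fat and 1755 (11.4%) were lower. The rises were larger than the falls: 1947 genes rose and 912 fell by at least 2-fold, and 938 rose and 101 fell by at least 8-fold. All 4 subcutaneous libraries lay above all 4 blood libraries for 2114 genes (13.8%) and below them for 2416 (15.7%). In the 3 mice with both tissues, 2134 of the 2366 higher genes were higher and 1741 of the 1755 lower genes were lower in each mouse. The calls rest on these same libraries, so this agreement is not independent of them. With mouse as a block in the fit, 1588 genes were higher and 1322 lower. Without subcutaneous 2846, 2147 genes were higher and 1567 lower. The count of higher genes fell to 1566 without blood 2683 and to 1569 without that of mouse 2668.

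**Figure D1:**
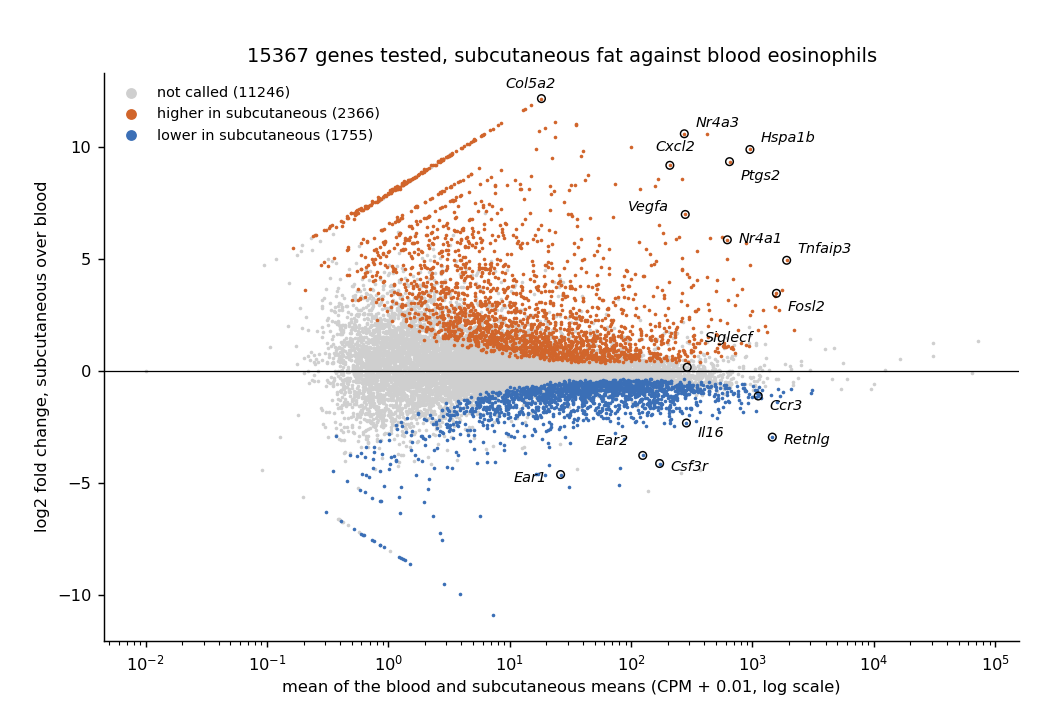
Log2 fold change of each of 15367 genes (subcutaneous over blood) against the mean of the 2 group means (CPM + 0.01, log scale); each point is a gene, orange if called higher, blue if called lower and grey if neither. The straight lines of points at the edges hold genes with no count in 1 tissue, among them 178 called higher with 0 counts in blood and 19 called lower with 0 counts in subcutaneous fat, and Nr4a3, Hspa1b, Cxcl2 and Ptgs2 lie high above 0 at more than 100 CPM.

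The immediate early genes formed the group with the largest share of rises. Of 40 tested, 32 were higher in subcutaneous fat and 1 was lower. Their median log2 fold change was 2.98 against 0.07 over all genes tested. As a share to set beside this and each later list count, 15.4% of all genes tested were higher and 11.4% lower. The orphan nuclear receptors of the NR4A family, transcription factors induced within minutes of cell stimulation, led the list. Nr4a3 (GRCm38, chr4:48045153-48086447) stood at 0.119, 0.329, 0.629 and 0.298 CPM in blood and at 151, 721.5, 635 and 687 CPM in subcutaneous fat. Nr4a1 (chr15:101254269-101274795) stood at 22.9, 21.4, 29.5 and 10.2 CPM in blood and at 696, 1517, 1223 and 1450 CPM in subcutaneous fat. For both, every subcutaneous library lay far above every blood library, and subcutaneous 2846 was the lowest of the subcutaneous ones. Log2 fold changes were 10.60 ± 0.74 for Nr4a3 (adjusted p = 4.1e-06), 10.01 ± 0.85 for Nr4a2 (adjusted p = 1.8e-05) and 5.86 ± 0.38 for Nr4a1 (adjusted p = 1.4e-06). For Nr4a2, whose blood values ran from 0 to 0.534 CPM, the estimate was 11.07 without blood 2807.

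The abundant members of the immediate early list rose as well. Zfp36, which encodes the mRNA-destabilising protein tristetraprolin, averaged 264 ± 40.04 CPM in blood and 3267 ± 1155 CPM in subcutaneous fat (SD, n = 4 each), a 12.4-fold rise (adjusted p = 5.5e-06). Fosl2, a subunit of the AP-1 transcription factor, rose 11.1-fold (adjusted p = 0.00015), and Dusp1, a phosphatase that switches off MAP kinases, rose 3.61-fold (adjusted p = 0.00035). Myc was the 1 member that was lower, with a log2 fold change of -1.38 ± 0.44 (adjusted p = 0.035). That call was lost without subcutaneous 2846 (adjusted p = 0.069), without any one of several other libraries and in the fit that blocks on mouse (0.056).

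The promoters of the 3 NR4A genes share copies of the motif TGACG, the half-site that CREB-type transcription factors are known to recognise, and are shown because these genes moved together. The bases come from RefSeq on GRCm38.p6, written 5′ to 3′ on the gene's strand, with TGACG or its reverse complement CGTCA in capitals. The stretch for Nr4a1 lies at chr15:101266596-101266845 (plus strand), Nr4a2 at chr2:57124004-57124253 (minus strand) and the first 120 of the 250 bases for Nr4a3 at chr4:48045055-48045174 (plus strand).
Nr4a1: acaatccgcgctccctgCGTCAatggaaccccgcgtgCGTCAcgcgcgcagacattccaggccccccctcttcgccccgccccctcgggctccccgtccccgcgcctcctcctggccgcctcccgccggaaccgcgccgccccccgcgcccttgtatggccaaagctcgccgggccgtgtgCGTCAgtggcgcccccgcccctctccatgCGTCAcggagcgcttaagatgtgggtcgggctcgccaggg
Nr4a2: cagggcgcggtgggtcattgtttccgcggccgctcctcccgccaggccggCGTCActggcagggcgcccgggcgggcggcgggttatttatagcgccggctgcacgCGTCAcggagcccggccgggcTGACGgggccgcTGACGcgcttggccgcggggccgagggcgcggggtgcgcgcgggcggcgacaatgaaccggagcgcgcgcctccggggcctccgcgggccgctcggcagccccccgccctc
Nr4a3: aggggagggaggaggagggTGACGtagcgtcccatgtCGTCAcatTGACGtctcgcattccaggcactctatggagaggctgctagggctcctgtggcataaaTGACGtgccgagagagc
Each held 4 copies in the 250 bases before its RefSeq start. At least 3 copies on either strand were found in 1.62% of the 10111 tested genes with a promoter in the table, in 2.63% of those called higher and in 1.45% of those called lower. The match is to letters only, and no factor binding was measured.

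Heat shock and stress genes also rose. Of 31 tested, 18 were higher and 3 were lower (median log2 fold change 1.43). Hspa1b (chr17:34956436-34959238), one of the inducible HSP70 chaperone genes, stood at 4.81, 0.611, 0.262 and 2.38 CPM in blood and at 3876, 864, 1659 and 1213 CPM in subcutaneous fat. The groups did not overlap, and subcutaneous 2846 was the highest. The log2 fold change was 9.90 ± 1.03 (adjusted p = 8.3e-05), or 10.72 without blood 2807. Hspa1a, its near-identical neighbour, rose by 10.59 ± 0.81 on the log2 scale (adjusted p = 7.5e-06), and reads could be divided between the pair only by estimate. Dnaja1, an HSP40 co-chaperone of HSP70, rose from 72.2 to 77.1 CPM in blood to 829 to 2129 CPM in subcutaneous fat (17.5-fold, adjusted p = 1.6e-05). Sesn2, a stress-induced regulator of mTORC1 signalling, fell by 1.06 ± 0.29 on the log2 scale (adjusted p = 0.017, and 0.051 without blood 2771). These genes and the immediate early genes moved with the digestion step, whose part was not tested.

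Genes of the NF-kB and TNF response were higher in subcutaneous fat for 13 of 28 members and lower for 1 (median log2 fold change 1.62), and DESeq2 called 21 higher. Tnfaip3 (chr10:19000910-19015657), which encodes the NF-kB inhibitor A20 and is itself an NF-kB target, stood at 107, 124, 102 and 148 CPM in blood and at 1793, 5080, 3320 and 4637 CPM in subcutaneous fat. The ranges lay far apart, and the rise was 30.9-fold (log2 4.95 ± 0.36, adjusted p = 3.3e-06). Nfkbiz, an atypical IkB protein, rose 19.9-fold (adjusted p = 1.4e-06). Cd83, a surface protein of activated antigen-presenting cells, rose from 0.695 to 8.90 CPM to 160 to 528 CPM (log2 6.52 ± 0.90, adjusted p = 0.00057, and 7.38 without blood 2807). Tnip1, an A20-binding inhibitor of the pathway, fell by 0.68 ± 0.14 on the log2 scale (adjusted p = 0.0045).

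**Figure D2:**
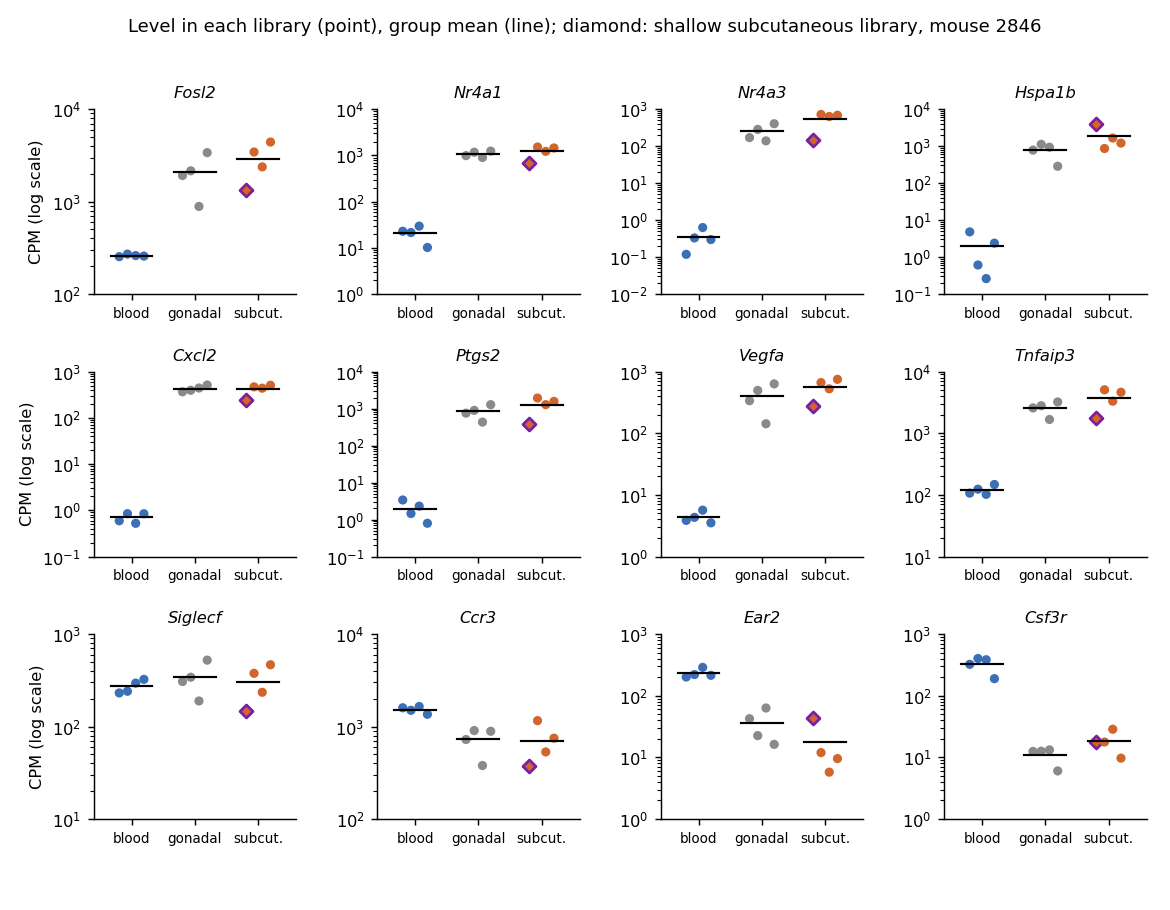
Level (CPM, log scale, each panel with its own range) of 12 named genes in every library of blood, gonadal and subcutaneous fat eosinophils; each point is a library, lines are group means, and the diamond is the shallow subcutaneous library of mouse 2846. For the first 8 genes all 4 subcutaneous libraries lie above all 4 blood libraries, for Siglecf the groups overlap, and for Ccr3, Ear2 and Csf3r all 4 lie below.

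Cytokine and chemokine genes had the highest median change of the 23 functional lists (log2 4.37), with 22 of 32 higher and 4 lower. Cxcl2 (chr5:90903871-90905938), a chemokine that attracts neutrophils through CXCR2, stood at 0.594, 0.845, 0.524 and 0.843 CPM in blood and at 249, 469, 439 and 508.5 CPM in subcutaneous fat. All libraries of each tissue lay close together, and the log2 fold change was 9.19 ± 0.32 (adjusted p = 7e-09). Cxcl1, a chemokine for the same receptor, rose from 0 to 0.496 CPM to 41.2 to 147 CPM (log2 8.78 ± 0.92, adjusted p = 9.5e-05, and 9.82 without blood 2668). Ccl2, which attracts monocytes through CCR2, had 1 count over the blood libraries and 1569 over the subcutaneous ones, a ratio of 2531 at equal depth (exact 95% interval 454 to 1e+05, counting error only, adjusted p = 2.3e-05). Among the falls, Il16, a precursor of a chemoattractant cytokine that binds CD4, stood at 481, 454, 496 and 474 CPM in blood and at 90.7, 112, 113 and 64.7 CPM in subcutaneous fat. No library overlapped, and Il16 fell by 2.32 ± 0.24 on the log2 scale (adjusted p = 3.8e-05). Ccl6, an abundant eosinophil chemokine, fell by 0.99 ± 0.30 (adjusted p = 0.029), a call lost without subcutaneous 2846 (adjusted p = 0.071) and in the fit that blocks on mouse (0.057).

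The CXC chemokine genes Cxcl1, Cxcl2 and Cxcl3 are neighbours on chromosome 5, and each holds 1 match to an NF-kB type motif (GGGA, any base, then TTTCC), close to its start. Cxcl3 was chosen for this after its values were seen, and had a log2 fold change of 4.36 ± 1.24 (adjusted p = 0.022), lost without 1 library (largest adjusted p = 0.055). The stretch from 130 to 31 bases before each RefSeq start (GRCm38.p6, plus strand, 5′ to 3′) is shown with the match in capitals, at chr5:90891115-90891214 for Cxcl1, chr5:90903769-90903868 for Cxcl2 and chr5:90785971-90786070 for Cxcl3.
Cxcl1: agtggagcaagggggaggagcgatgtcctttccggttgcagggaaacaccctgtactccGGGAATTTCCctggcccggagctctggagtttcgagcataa
Cxcl2: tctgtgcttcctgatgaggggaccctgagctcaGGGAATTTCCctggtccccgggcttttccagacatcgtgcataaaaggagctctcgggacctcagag
Cxcl3: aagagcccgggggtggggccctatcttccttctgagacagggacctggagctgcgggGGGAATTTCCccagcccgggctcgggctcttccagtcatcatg
The match begins 71, 97 and 73 bases before the start. Within 250 bases before the start, the motif was found on either strand in 0.475% of the promoters of tested genes, in 0.856% of those called higher and in 0.685% of those called lower.

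Genes of tissue-active eosinophils rose for 5 of 17 members, 0 were lower and 12 were not called. Over all genes tested, 15.4% were higher and 11.4% lower. Ptgs2 (chr1:150100031-150108227), the inducible cyclooxygenase that starts prostaglandin synthesis, stood at 3.38, 1.46, 2.30 and 0.794 CPM in blood and at 375, 1940, 1284 and 1570 CPM in subcutaneous fat. Its groups were far apart, with a log2 fold change of 9.35 ± 0.71 (adjusted p = 6.7e-06). The costimulatory ligands Cd80 and Cd86 rose 5.598-fold and 5.578-fold (adjusted p = 0.0035 and 0.0016). Of 20 eicosanoid and lipid mediator genes tested, a list that also holds Ptgs2, 2 were higher and 5 lower, beside 15.4% and 11.4%. Ptgdr2, the prostaglandin D2 receptor CRTH2, fell by 2.21 ± 0.38 on the log2 scale (adjusted p = 0.0016). Ltb4r1, a receptor for leukotriene B4, fell 2.64-fold (adjusted p = 0.0013). Lta4h, which makes leukotriene B4, fell by 1.07 ± 0.17 (adjusted p = 0.00093).

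Growth factor and remodelling genes were higher for 14 of 27 members and lower for 2. This count was 8 without blood 2771 and 9 without either blood 2668 or subcutaneous 2771. Vegfa (chr17:46016993-46032369), the main growth factor of blood vessels, stood at 3.86, 4.32, 5.66 and 3.52 CPM in blood and at 275, 665, 527 and 751.5 CPM in subcutaneous fat. The ranges lay far apart, and the fitted rise was 128-fold (log2 6.995 ± 0.52, adjusted p = 5.2e-06). Mmp14, a membrane-bound metalloproteinase, rose by 5.72 ± 1.27 on the log2 scale (adjusted p = 0.0077) or by 8.05 without blood 2807. Adam19, a membrane metalloproteinase, fell by 1.84 ± 0.20 on the log2 scale (adjusted p = 5.9e-05).

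**Figure D3:**
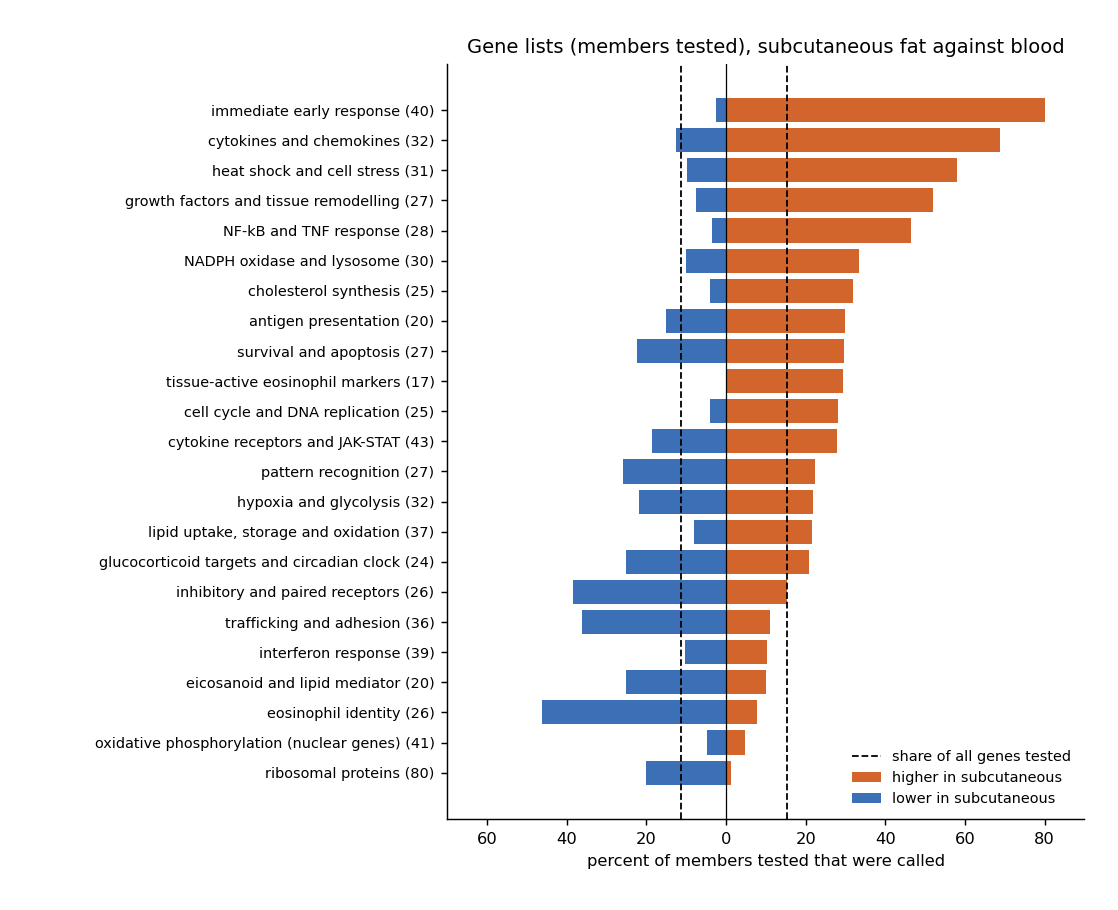
Percent of the tested members of each of 23 gene lists (number tested in brackets) called higher (orange, to the right) or lower (blue, to the left) in subcutaneous fat, with the share over all genes tested as dashed lines (15.4% higher, 11.4% lower). The immediate early list has the longest bar to the right, and the eosinophil identity list the longest to the left.

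Counts in the direction with fewer calls also moved. With mouse as a block, the lower members of the heat shock list went from 3 to 1, of the cytokine list from 4 to 2, of the interferon list from 4 to 2 and of the lysosome and antigen presentation lists from 3 to 1 each. The heat shock count was also 1 without blood 2771 or 2668, and the cytokine count also 2 without blood 2771, 2683 or 2668 or subcutaneous 2846 or 2771. Lower interferon genes numbered 1 or 2 without blood 2771, 2683 or 2668 or any one subcutaneous library, and the oxidative phosphorylation list had 1 higher without blood 2668 and 1 lower without that of mouse 2683.

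Of the eosinophil identity genes, 12 of 26 were lower and 2 higher, and of the trafficking and adhesion genes, 13 of 36 were lower, 4 higher and 19 not called (median log2 fold changes -0.82 and -0.88). The eosinophil-associated ribonucleases, granule proteins of the RNase A superfamily, fell together. Ear2 (chr14:44102654-44103534) stood at 202, 221, 289 and 215 CPM in blood and at 44.0, 11.96, 5.76 and 9.57 CPM in subcutaneous fat. The groups did not overlap, and subcutaneous 2846 was the highest of the subcutaneous ones. Ear2 fell by 3.77 ± 0.64 on the log2 scale (adjusted p = 0.0019) and by 4.65 without that library. Ear1, Ear10 and Ear6 fell by 4.62 ± 0.64, 4.61 ± 0.45 and 4.21 ± 0.71 (adjusted p = 0.00042, 2.5e-05 and 0.0016). The Ear genes are close copies of each other on chromosome 14, so the share of each copy is uncertain, while all 4 moved in the same direction. Gata2, a transcription factor of eosinophil, basophil and mast cell precursors, rose 11.7-fold (adjusted p = 0.00014).

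Receptors that guide circulating cells moved in both directions. Ccr3 (chr9:124021972-124031689), the eotaxin receptor, stood at 1598, 1500, 1649 and 1359 CPM in blood and at 376, 1160, 532 and 749 CPM in subcutaneous fat. All subcutaneous libraries were below blood, and Ccr3 fell by 1.11 ± 0.34 on the log2 scale (adjusted p = 0.028). The adjusted p was 0.059 without subcutaneous 2846 and 0.051 to 0.075 without any one of 4 other libraries. S1pr4, a receptor for sphingosine-1-phosphate, fell from 41.4 to 52.4 CPM to 4.49 to 14.9 CPM (adjusted p = 0.0012). Gpr18, a lipid-sensing receptor of leukocytes, fell by 3.03 ± 0.67 on the log2 scale (adjusted p = 0.0067), or by 3.75 without subcutaneous 2771. Rgs1, which dampens chemokine receptor signalling, moved the other way, from 5.21 to 10.8 CPM in blood to 320 to 824 CPM in subcutaneous fat (59.5-fold, adjusted p = 5.5e-06). The other members called higher were the chemokine receptors Cxcr4 (log2 1.59 ± 0.38, adjusted p = 0.0093) and Ccr1 (0.95 ± 0.29, adjusted p = 0.029, up to 0.10 without 1 library) and the receptor Gpr35 (1.82 ± 0.21, adjusted p = 9.3e-05), named here after their values were seen.

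Other large falls included Csf3r (chr4:126024550-126044440), the receptor for the granulocyte growth factor G-CSF. It stood at 324, 403, 384 and 189.5 CPM in blood and at 17.97, 17.7, 28.6 and 9.71 CPM in subcutaneous fat. Csf3r fell by 4.13 ± 0.38 on the log2 scale with no overlap (adjusted p = 1.9e-05). Hp, which encodes haptoglobin, fell by 4.59 ± 0.70 (adjusted p = 0.00074), or by 5.84 without subcutaneous 2771. Cxcr2, the receptor of Cxcl1 and Cxcl2, fell by 3.21 ± 0.86 (adjusted p = 0.019, and 0.051 without subcutaneous 2846) or by 4.81 without that of mouse 2771. Retnlg, a resistin-like gene of myeloid cells, had 2206 to 3298 CPM in blood and 161 to 667 CPM in subcutaneous fat (adjusted p = 0.00044). Its log2 fold change was -2.95 ± 0.42, or -3.54 without subcutaneous 2807. Cxcr2 and Retnlg are on the list of neutrophil markers, and the summed level of its 13 genes was 2581 to 3866 CPM in blood and 301 to 773 CPM in subcutaneous fat (exact permutation test, two-sided, p = 0.0286, the smallest that 4 against 4 libraries allow). Most of that sum was Retnlg itself in every blood library (2206 to 3298 CPM), so the test largely repeats the result for Retnlg. Of the 13, 9 had enough reads to be tested, and 7 were lower and 0 higher. Ly6g, Camp, Stfa2l1 and Elane were at 0 in all subcutaneous libraries, but of these only Stfa2l1 was called lower. The part of neutrophil RNA in the falls of Csf3r, Hp, Cxcr2 and Retnlg was not tested.

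Other genes that fell with no overlap were Cd101 (10.3-fold, adjusted p = 5.9e-05), an inhibitory surface receptor, and Frat2 (9.33-fold, adjusted p = 5.2e-05), a GSK3-binding protein of Wnt signalling. AI467606 fell 8.14-fold (adjusted p = 7.5e-06), Cbx8, a Polycomb subunit, 7.78-fold (adjusted p = 0.0025), and Dusp18, a phosphatase, 7.58-fold (adjusted p = 0.0016). Among the most abundant genes that fell were Tln1, which links integrins to actin, and Man2b1, a lysosomal mannosidase. Man2b1 fell by 1.13 ± 0.24 on the log2 scale (adjusted p = 0.0049) and Tln1 by 0.82 ± 0.24 (adjusted p = 0.025, and 0.056 without subcutaneous 2846). Akap13, a kinase-anchoring protein, fell by 0.93 ± 0.25 (adjusted p = 0.017, and up to 0.053 without 1 library).

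Signalling lists moved in both directions. For comparison with each list count here and below, 15.4% of all genes tested were higher and 11.4% lower. Of 43 cytokine receptor and JAK-STAT genes, 12 were higher and 8 lower. Tnfrsf1b, a TNF receptor, rose 2.70-fold (adjusted p = 0.00078) and Socs3, a feedback inhibitor of cytokine signalling, 4.85-fold (adjusted p = 0.0065). Il6st, the shared receptor chain gp130, had a log2 fold change of 2.29 ± 0.77 (adjusted p = 0.046, and 0.12 without subcutaneous 2846), or 3.08 without blood 2807. Of 27 pattern recognition genes, 6 were higher and 7 lower. Myd88, the adaptor of most Toll-like receptors, fell by 1.49 ± 0.15 on the log2 scale (adjusted p = 4e-05), and Tlr13 and Irak3 by 1.05 ± 0.18 and 0.87 ± 0.19 (adjusted p = 0.0016 and 0.0066). Clec4e, the receptor Mincle, rose 13.8-fold (adjusted p = 8.2e-05).

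Of 26 genes on the list of inhibitory and paired receptors, 10 were lower and 4 higher, with 6 lower without subcutaneous 2846. The list is not of receptors alone, and Tyrobp and Ptpn6 are among the 10. Siglece and Fcgr3 fell 2.89-fold and 2.46-fold (adjusted p = 0.0044 and 0.0015), and Pilra, which has a close relative in Pilrb1, by 2.66 ± 0.74 on the log2 scale (adjusted p = 0.022, up to 0.053 without 1 library), or by 3.52 without subcutaneous 2771. Lilr4b, a receptor on this list with near-identical copies, rose 6.71-fold (adjusted p = 0.00012). Survival and apoptosis genes were higher for 8 and lower for 6 of 27. The kinases Pim3 and Pim1 rose 14.3-fold and 4.79-fold (adjusted p = 1.4e-05 and 0.00058), and Bcl2a1b, an anti-apoptotic BCL2 relative with close copies, 12.8-fold (adjusted p = 0.001). Trp53inp1, a p53 target, fell by 1.42 ± 0.30 on the log2 scale (adjusted p = 0.0047).

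Lipid handling genes were higher for 8 and lower for 3 of 37, beside 15.4% higher and 11.4% lower over all genes tested. Dgat1, the last enzyme of triglyceride synthesis, stood at 18.6, 12.8, 7.86 and 12.5 CPM in blood and at 104, 290, 233 and 349 CPM in subcutaneous fat. The groups were well apart, and Dgat1 rose 18.9-fold (adjusted p = 0.00028). Cd36, a fatty acid receptor, rose 14.1-fold (log2 3.82 ± 0.85, adjusted p = 0.0081), with a log2 fold change of 4.56 without blood 2807. Fabp4, the fatty acid binding protein of adipocytes and macrophages, had 101 CPM in subcutaneous 2846 and 3.59 to 11.4 CPM in the other subcutaneous libraries, against 0.149 to 2.51 CPM in blood. Its log2 fold change was 4.74 ± 1.29 (adjusted p = 0.021) with all libraries and 2.55 (adjusted p = 0.061) without that of mouse 2846, and 5.57 without blood 2683. Pnpla2, the main triglyceride lipase, fell by 1.02 ± 0.19 on the log2 scale (adjusted p = 0.0024).

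Of 25 cholesterol synthesis genes, 8 were higher and 1 lower, but 1 or 2 were higher without any one of blood 2771, 2683 and 2668, and 2 with mouse as a block. Counts were 5, 4 and 5 without subcutaneous 2846, 2807 and 2668. Srebf2, a transcription factor of the pathway, had a log2 fold change of 0.71 ± 0.18 (adjusted p = 0.015), a call lost without blood 2771 (adjusted p = 0.052) and in the fit that blocks on mouse (0.055). Sc5d, a late enzyme of the pathway, fell by 1.90 ± 0.31 (adjusted p = 0.0011). Hypoxia and glycolysis genes were higher for 7 and lower for 7 of 32. Slc16a3, the lactate exporter MCT4, rose 5.35-fold (adjusted p = 0.0012), P4ha1, a collagen prolyl hydroxylase, 2.41-fold (adjusted p = 0.0063), and Bnip3l, a mitophagy receptor, fell by 1.16 ± 0.18 on the log2 scale (adjusted p = 0.00069).

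Lysosome and NADPH oxidase genes were higher for 10 and lower for 3 of 30, with 6 higher without subcutaneous 2846 and 5 or 6 without blood 2771, 2683 or 2668 or subcutaneous 2771. The cathepsins Ctsl and Ctsb, lysosomal proteases, rose 6.60-fold and 6.35-fold (adjusted p = 0.013 and 0.012), and Ctsc 5.75-fold (adjusted p = 0.03, and 0.06 without subcutaneous 2846). The log2 fold change of Ctsc was 2.52, or 3.43 without blood 2807. Rac2, a GTPase of the NADPH oxidase, fell by 0.83 ± 0.27 on the log2 scale (adjusted p = 0.039, and 0.061 without subcutaneous 2846). Macrophage markers moved with this list and with Cd36. Their summed level over 16 genes was 373 to 950 CPM in blood and 1498 to 5857 CPM in subcutaneous fat (exact permutation test, two-sided, p = 0.0286), and 9 of 16 were higher and 0 lower. Apoe, the most abundant of them, had 26.1 to 302 CPM in blood and 502 to 2478 CPM in subcutaneous fat (log2 3.40 ± 0.83, adjusted p = 0.012, and 4.19 without blood 2807), and Csf1r, the receptor of the macrophage growth factor, had a log2 fold change of 0.63 ± 0.30 (adjusted p = 0.14). Their part in these results was not tested.

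Glucocorticoid and clock genes were lower for 6 and higher for 5 of 24, with 2 or 3 lower without blood 2771, 2683 or 2668 or subcutaneous 2846 or 2771. Sgk1, a kinase induced by glucocorticoids, and Per2, a clock repressor, fell by 1.88 ± 0.26 and 1.84 ± 0.28 on the log2 scale (adjusted p = 0.0004 and 0.00078). Tsc22d3, which encodes the glucocorticoid-induced protein GILZ, fell by 1.47 ± 0.47 (adjusted p = 0.036, and up to 0.079 without 1 library). Mt1, a metallothionein, rose by 4.86 ± 1.19 (adjusted p = 0.013) or by 7.23 without blood 2807. Cell cycle genes were higher for 7 and lower for 1 of 25, with 3 or 4 higher without blood 2771, 2683 or 2668 or subcutaneous 2771. Those 3 or 4 are close to the 15.4% of all genes tested that were higher with all libraries. In those runs themselves, 1566 to 1926 genes were higher in place of 2366. Rrm1, a subunit of ribonucleotide reductase, rose from 3.82 to 5.21 CPM to 20.1 to 52.2 CPM (8.13-fold, adjusted p = 4.1e-05), while Mki67, the proliferation marker Ki-67, had 58.4 CPM in subcutaneous 2771 and 5.89 to 17.8 CPM in the others (adjusted p = 0.047, and 0.18 without that library).

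Ribosomal protein genes were lower for 16 and higher for 1 of 80, but only 10 were lower with mouse as a block, 9 without blood 2683 and 30 without gonadal 2683. Rps9 stood at 1071, 1049, 1330 and 1254 CPM in blood and at 335, 511, 409 and 471 CPM in subcutaneous fat, below blood in every library. It fell by 1.45 ± 0.17 on the log2 scale (adjusted p = 0.00012). Rpl22l1, a paralogue of Rpl22, rose 2.55-fold (adjusted p = 0.0024). The nuclear RNA Malat1 took 2.92% to 3.86% of reads in subcutaneous fat and 2.21% to 2.70% in blood (exact permutation test, two-sided, p = 0.0286), and the part of RNA composition in the ribosomal protein counts was not tested. Interferon response genes were higher for 4 and lower for 4 of 39, with 4 to 6 higher and 1 to 5 lower when 1 library was left out, near the background. Nuclear genes of oxidative phosphorylation were higher for 2 and lower for 2 of 41. Antigen presentation genes were higher for 6 and lower for 3 of 20. Among interferon genes, Herc6, an interferon-induced gene, rose 3.75-fold (adjusted p = 0.0016) and Irf9, a transcription factor of interferon signalling, fell by 1.24 ± 0.22 on the log2 scale (adjusted p = 0.0018).

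Among protein-coding genes of at least 20 CPM with no overlap, the 4 largest fitted rises belonged to genes of extracellular matrix and mural cells. Each of these had its highest CPM in subcutaneous 2846. Col5a2, a fibrillar collagen chain, had 0 counts in all blood libraries and 120, 4.91, 15.98 and 5.30 CPM in subcutaneous fat. All subcutaneous libraries were above 0, with subcutaneous 2846 far above the others. Against a floor of 3 counts over the blood group, Col5a2 was at least 426-fold higher (adjusted p = 0.0041). By the same floor, Mmp2, a gelatinase, was at least 426-fold higher, Notch3, a receptor of mural cells, at least 279-fold and Eln, which encodes elastin, at least 258-fold higher. These floors pool the counts of the subcutaneous libraries. Subcutaneous 2846 gave 400 of 792 counts for Col5a2, 281 of 793 for Mmp2, 304 of 518 for Notch3 and 306 of 479 for Eln. For Mmp2, the deeper library subcutaneous 2771 gave more counts (327). In the fit that blocks on mouse, these genes had adjusted p-values of 0.071, 0.063, 0.12 and 0.11, so none passed. Without subcutaneous 2846 they were 0.00026, 0.0015, 0.015 and 0.001, and the fitted log2 fold changes were 10.25, 10.65, 9.52 and 9.13 in place of 12.17, 11.88, 11.72 and 11.67. Of the 12 largest rises under these conditions, 8 were highest in subcutaneous 2846. These were the 4 genes above, Col5a3, C7, Aebp1 and the heat shock gene Hspa1a. Igfbp5, also among the 12, had 76.4 CPM in subcutaneous 2846 and 77.7 CPM in subcutaneous 2771.

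**Figure D4:**
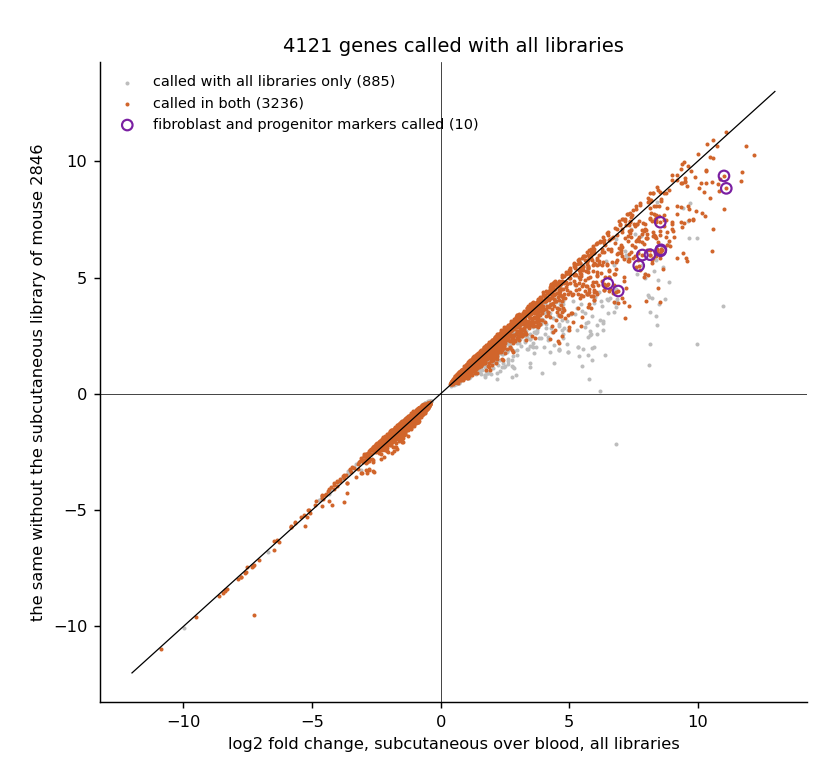
Log2 fold change (subcutaneous over blood) of the 4121 called genes with all libraries (x axis) against the same without subcutaneous 2846 (y axis), with the line of equality; each point is a gene, orange where called in both (3236), grey where called with all libraries only (885). The 10 called fibroblast and progenitor markers (rings) lie below the line, and falls lie close to it.

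Markers of adipose fibroblasts and their progenitors rose with the matrix genes. Of 18 tested, 10 were higher and 0 lower, and the median log2 fold change was 6.70 with all libraries and 4.58 without that of mouse 2846. Their summed level was 427 to 492 CPM in blood, 6545 CPM in subcutaneous 2846 and 624 to 934 CPM in the other subcutaneous libraries (exact permutation test, two-sided, p = 0.0286). Gsn, which is on this list, held 217 to 268 CPM of the blood sum and overlapped between the tissues (adjusted p = 0.099). Col3a1, a fibroblast collagen, stood at 5.05, 0.470, 0.0524 and 0.0992 CPM in blood and at 1800, 95.4, 123 and 75.9 CPM in subcutaneous fat. The other subcutaneous libraries also lay above blood, and the log2 fold change of 8.57 ± 1.69 (adjusted p = 0.0045) was 6.19 without subcutaneous 2846 and 11.16 without blood 2807. Endothelial markers summed to 184 CPM in that subcutaneous library and to 1.91 to 10.3 CPM in the others, against 1.44 to 20.4 CPM in blood. Adipocyte markers summed to 0.423 to 3.32 CPM in blood and 3.96 to 28.4 CPM in subcutaneous fat, with Plin1, the perilipin of lipid droplets, at 0 in blood and at least 31.2-fold higher (adjusted p = 0.019), most of it in subcutaneous 2846. Over all 2366 genes that rose, 48.4% had their highest value in subcutaneous 2846, more than in any of the other 3. The part of cells other than eosinophils in these rises was not tested.

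**Figure D5:**
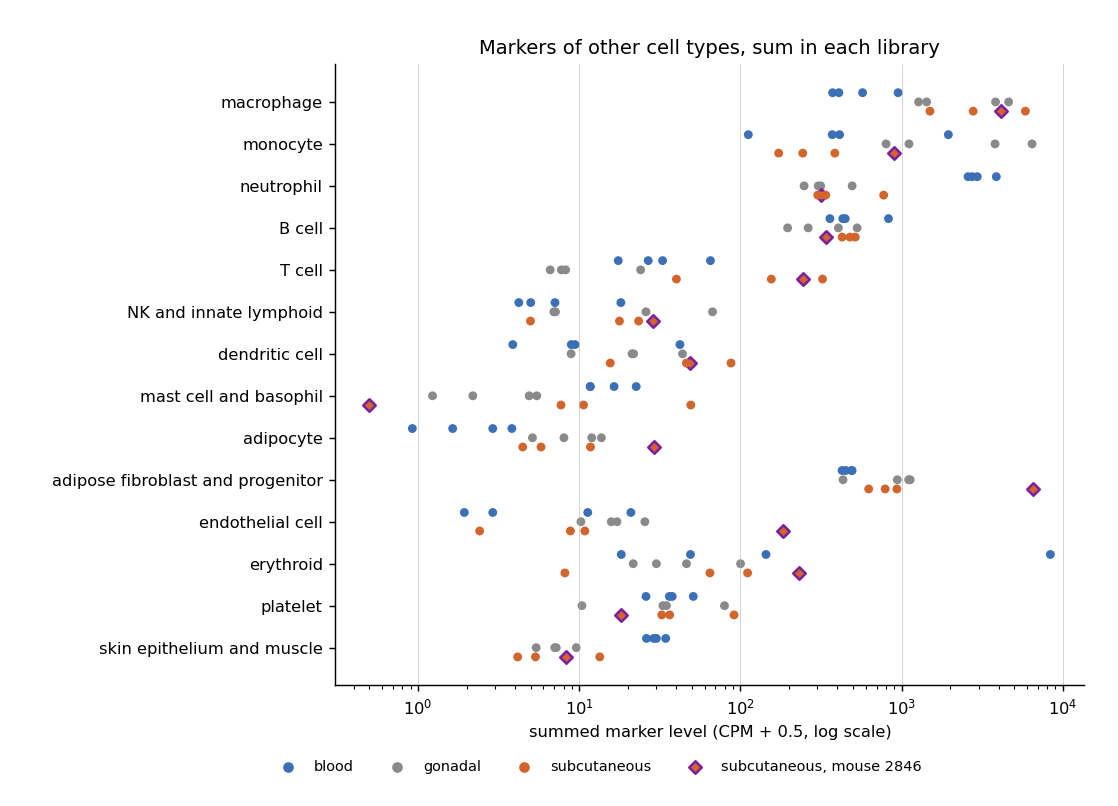
Summed level (CPM + 0.5, log scale) of marker genes of 14 other cell types in each library; points are libraries of blood (blue), gonadal fat (grey) and subcutaneous fat (orange), and the diamond is subcutaneous 2846. Macrophage sums lie higher and neutrophil sums lower in subcutaneous fat than in blood, and the fibroblast and endothelial sums of the diamond exceed those of all other libraries.

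T cell markers summed to 17.0 to 64.7 CPM in blood and 39.6 to 322.5 CPM in subcutaneous fat (exact permutation test, two-sided, p = 0.0571), with Cd4 at 0.943 to 9.44 and 11.6 to 137 CPM (adjusted p = 0.032, and 0.10 without subcutaneous 2771). The log2 fold change of Cd4 was 3.85, with 2.57 without that library and 4.998 without blood 2807. B cell markers summed to 358 to 828 and 337 to 515 CPM (p = 0.714 by the same exact test), with Bank1 alone at 225 to 278 and 165 to 423 CPM. The median log2 fold change of the 12 markers was -1.045, and 0 were called in either direction. Haemoglobin genes stood apart in blood 2771, where Hba-a1 had 2754 CPM against 4.87 to 35.3 CPM in the other blood libraries. Mast cell and basophil markers summed to 11.2 to 22.1 CPM in blood and 0 to 48.75 CPM in subcutaneous fat. Only Kit had enough reads to be tested, with 10.5 to 22.1 and 0 to 9.03 CPM (adjusted p = 0.16). Kit made up the whole sum in blood 2807, 2771 and 2668, so Mcpt8 and Fcer1a were at 0 there, as in all subcutaneous libraries. In subcutaneous 2771, Kit held 7.87 of the 48.75 CPM, and the rest came from other members.

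Against gonadal fat, 1 of 15367 genes passed the test (0.00651%), and 1234 (8.03%) had an unadjusted p under 0.05. DESeq2 called 152. No gene passed with mouse as a block, with limma-voom, after thinning to the shallowest library or in 6 of the 12 runs that left out 1 library (blood 2771, gonadal 2846, 2683 or 2668, subcutaneous 2807 or 2771). The gene was Lef1 (chr3:131110471-131224356), a transcription factor of T cells, at 34.7, 20.8, 23.0 and 2.72 CPM in subcutaneous fat. It averaged 0.0665 CPM in gonadal fat (log2 fold change 8.23, adjusted p = 0.0185). Blood held 3.88 to 7.83 CPM of it, and subcutaneous fat against blood gave 1.79 ± 0.65 (adjusted p = 0.059). T cell markers, of which Lef1 is one, summed to 6.11 to 23.6 CPM in gonadal fat, below every subcutaneous library, and their part in this difference was not tested. In gonadal fat, Nr4a1 averaged 1075 CPM, Cxcl2 430 CPM, Ptgs2 842 CPM and Col5a2 14.1 CPM. The comparisons with blood and with gonadal fat share the subcutaneous libraries, and a p above the threshold between the fat depots does not show that they are alike.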

How the data were processed

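Total RNA of sorted eosinophils had been made into stranded total RNA libraries with a SMARTer Pico kit, per the labels' protocols. The deposited tables hold expected counts and TPM (length-scaled transcript abundance) per transcript for each library, per the file headers. The submitters' processing notes name Trim Galore 0.6.4, Salmon 1.6.0, DESeq2 1.30.1 and mm10. The use of strand in counting was not given in the sources used here. The deposited TPM values were used only to set levels of genes side by side.

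Expected counts were summed per gene over GENCODE M21 (GRCm38) and rounded to whole numbers. This release matched 139791 of 140992 transcripts, and unmatched ones held 0.351% to 0.538% of reads over the 12 libraries. All 12 libraries were fitted with edgeR 4.0.16 in R 4.3.3 (TMM scaling, filterByExpr, robust quasi-likelihood test, tissue as the only term). Benjamini-Hochberg adjusted p-values ran over all 15367 genes, with a threshold of 0.05, and a standard error is the log2 fold change over the root of F. CPM are scaled by TMM. Sums of markers were compared by two-sided exact permutation tests over the 70 splits of 4 against 4 libraries. Floors and intervals cover counting error only. The fit was tested on simulated data.

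The same mouse number marks the same animal, so 3 mice pair blood with subcutaneous fat. Deviations of libraries of one mouse correlated by 0.067 on average (-0.111 to 0.264 over 3 pairs), against -0.014 for other pairs. Mouse as a block was an alternative, beside DESeq2 1.42.0, limma 3.58.1 (voom with sample weights), other scaling and filters, thinning to the shallowest library and leaving out each library.

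Named genes were the 12 largest changes in each direction among called protein-coding genes with at least 20 CPM in the higher group, no overlap and a call without subcutaneous 2846, outside the marker lists. For each functional list, up to 3 called members with the largest change in its leading direction and 1 in the other were added. The sort markers, the 2 most abundant members of each marker list and the 5 most abundant called genes in each direction were added too. The rule also allowed for the 5 largest changes between fat depots in each direction. It added none, because the only gene called between depots, Lef1, is on a marker list. The members and lists were chosen with earlier results of these data known. Some genes that the rule names are not reported here.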

Additional observations from a re-analysis of the deposited data

Results flagged for a closer look

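Within a group of 4 libraries, 1 library was called apart where its gap to the nearest other, on log2(CPM + 0.5), was larger than Dixon's 95% critical share of the group's range. Chance flags about 1 in 20 groups, which is 13.4 of the 267 groups looked at, and 16 were found. In subcutaneous 2846, Col3a1 had 1800 CPM against 75.9 to 123 in the other subcutaneous libraries. The same library was low for Nr4a3 (150.6 CPM against 635 to 721.5), Tnfrsf1b (112.9 against 187 to 205) and Rpl27 (1.198 against 10.2 to 13.7). Rgs1 had 823.8 CPM in subcutaneous 2668 against 320 to 371 in the others.

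In blood 2807, Ighm, the immunoglobulin heavy chain of B cells, had 271.6 CPM against 98.3 to 106. Prg2 had 1.033 CPM in blood 2771 against 3.80 to 4.76. The blood library of mouse 2683 held 29.65 CPM of Frat2 against 39.0 to 40.3, 3.824 CPM of Rrm1 against 4.98 to 5.21 and 5265 CPM of Ccl6 against 3544 to 3778. Tnfrsf1b had 51.25 CPM in blood 2668 against 67.1 to 70.5.

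In 5 cases the other 3 libraries were at 0, where any count at all stands apart by construction, so the flag alone says nothing about the library. In blood 2771 these were C7 with 1 count (0.04696 CPM) and Igfbp5 and Aebp1 with 2 counts (0.09393 CPM) each. Ccl2 had 1 count (0.05238 CPM) in blood 2683. Cidec, a lipid droplet protein, had 55 counts (3.264 CPM) in blood 2807, more than the 1 or 2 counts of the others. Its log2 fold change rested on that library, at 1.21 with all libraries and 7.91 without blood 2807.

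Between the fat depots, Lef1 was higher in subcutaneous fat by a log2 fold change of 8.232 (adjusted p = 0.0185, edgeR).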

How the results depend on the processing

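Of 138 named genes, 99 kept their side of the threshold in every alternative run. The sign of the log2 fold change turned in at least 1 alternative for 14 genes, of which 0 were called and 14 were not. Over 2889 values, 2720 were on the same side, 159 had lost the call and 10 had gained one. Leaving out 1 library at a time gave 1566 to 2495 higher genes, 1171 to 1950 lower genes and 0 to 7 genes between the fat depots. With mouse as replicate block, 1588 genes were higher, 1322 lower and 0 differed between the depots, and among named genes the calls of Col5a2, Mmp2, Notch3, Eln, Myc, Psmb9, Srebf2 and Ccl6 were lost. Between the depots, 152 genes were called by DESeq2 and 0 by limma-voom, after thinning, or without the subcutaneous 2846 and blood 2807 libraries, against 1 in the edgeR fit. DESeq2 called 3173 higher and 2114 lower genes than blood.

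Member counts without 1 library ran from 8 to 14 higher for growth factors, 5 to 11 higher for NADPH oxidase and lysosome, 1 to 7 higher for cholesterol synthesis, 1 to 2 higher for oxidative phosphorylation, 3 to 9 higher for the cell cycle, 6 to 11 lower for inhibitory receptors, 2 to 6 lower for glucocorticoid targets and 9 to 30 lower for ribosomal proteins. With the block, 2 cholesterol genes were higher and 10 ribosomal proteins lower. With blood and subcutaneous libraries only, 4 cholesterol genes were higher. With no filter on low counts, 6 lysosome genes were higher and 10 ribosomal proteins lower, and 10 were lower without the 2846 and 2807 libraries. DESeq2 called 21 NF-kB genes higher. The cause was not tested.

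The subcutaneous libraries were shallower than those of blood, subcutaneous 2846 most of all, and 4 libraries a group limit the exact tests to p = 0.0286 at the least. A gene at 0 in a group is known only to lie below the floor of 3 counts.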

Other observations

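The genes of this section were chosen after their values were seen. Of 7 tested genes of the CD209 family, C-type lectins of myeloid cells, 4 were higher in subcutaneous fat and 0 lower, where 15.4% of all genes tested were higher. Cd209b had 13.6 to 145 CPM in subcutaneous fat and 0 to 0.9496 CPM in blood (log2 8.10 ± 1.35, adjusted p = 0.0018, edgeR). Cd209f, Cd209g and Mgl2, another C-type lectin, rose by 8.29 ± 1.09, 9.50 ± 1.48 and 5.91 ± 1.10 on the log2 scale (adjusted p = 0.00043, 0.0012 and 0.0033), and their close copies make each share uncertain. Cd209a had a log2 fold change of 1.27 ± 1.10 with overlapping libraries (adjusted p = 0.42). Pla2g2d, a secreted phospholipase of resident myeloid cells, had 27.3 to 169 CPM against 0 to 0.237 CPM in blood (log2 9.62 ± 1.16, adjusted p = 0.00024). These genes moved with the macrophage marker sum, whose part in them was not tested.

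Hdc, the enzyme that makes histamine, had 212 to 763 CPM in subcutaneous fat and 9.73 to 21.4 CPM in blood (log2 5.05 ± 0.54, adjusted p = 8.2e-05). Mpp7, a scaffold protein, and Ifrd1, a transcriptional co-regulator, rose by 5.98 ± 0.52 and 5.98 ± 0.23 (adjusted p = 1.4e-05 and 1.1e-08), and Cdkn1a, the cell cycle inhibitor p21, by 5.75 ± 0.50 (adjusted p = 1.6e-05). Dusp6, a phosphatase of ERK, had 64.1 to 89.3 CPM in subcutaneous fat and 293 to 421 CPM in blood, with no overlap, and fell by 2.19 ± 0.15 on the log2 scale (adjusted p = 2.3e-06). Adora3, an adenosine receptor, fell by 2.46 ± 0.30 (adjusted p = 0.00014). S100a8 and S100a9, the calprotectin subunits, fell by 5.18 ± 0.91 and 5.08 ± 0.84 (adjusted p = 0.0022 and 0.0017), and both are on the neutrophil marker list.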
